A study of Mus musculus with 6 samples.

Results

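The genes followed here, 10 in number, belong to the calcium/calmodulin-dependent kinase family, read in cultured mouse neurons after knockdown of *Pla2g4e*. They were the 4 genes of CaMKII (*Camk2a*, *Camk2b*, *Camk2d* and *Camk2g*), *Camk1* and *Camk1d* of CaMKI, *Camk4* (CaMKIV), the upstream kinases *Camkk1* and *Camkk2*, and the pseudokinase gene *Camkv*. The genes were chosen by name, with earlier results of these data known, and found through the gene identifiers in the count files. All 10 were among the 55357 genes of the files and among the 21876 genes tested, each of which reached 6 reads in 1 library or more.

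Calcium that enters a neuron binds calmodulin, and calcium/calmodulin activates these serine/threonine kinases. CaMKII forms large holoenzymes of mixed α, β, γ and δ subunits, is abundant at the postsynaptic density, and is known for its part in long-term potentiation and spine structure. CaMKI and CaMKIV act in a cascade in which CaMKK1 and CaMKK2 phosphorylate them on the activation loop, CaMKIV being mostly nuclear and known for the phosphorylation of CREB.

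The data were 6 poly(A) RNA-seq libraries of primary neuronal cultures from the cortex and hippocampus of wild-type C57BL/6N mouse embryos (E18), 3 transduced at DIV4 with a control shRNA lentivirus (shCtrl) and 3 with a lentivirus against *Pla2g4e* (sh*Pla2g4e*), all collected at DIV14. *Pla2g4e* encodes a calcium-dependent N-acyltransferase, and the comparison asks which transcripts differ when it is knocked down as neurons mature. The knockdown rests on 1 shRNA sequence, and the control is described as a control or scrambled shRNA. The labels do not say that the libraries of a group came from separate cultures, so that p-values measure the spread between these libraries, which may be technical.

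Between 17054717 and 23570180 reads were counted per library. *Pla2g4e* itself stood at 38.0, 35.1 and 35.4 CPM (reads scaled to library size with TMM factors) in shCtrl and at 21.8, 14.1 and 18.7 in sh*Pla2g4e*, a log2 fold change of −0.99 (SE 0.131, edgeR adjusted p = 1.24e-04). At an adjusted p under 0.01 (edgeR's quasi-likelihood test, Benjamini-Hochberg) 876 genes were down-regulated, 4% of those tested, and 543 were up-regulated, 2.48%. The lower genes were 61.7% of all called genes, and with scaling by library size alone 43.3%. The labels call the cells neurons, and pan-neuronal markers summed to 4801 to 5209 CPM in shCtrl and 4227 to 4658 in sh*Pla2g4e*, while all 8 astrocyte markers were also detected. In such bulk samples fewer cells of a type and less RNA per cell cannot be told apart.

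Of the 10 kinase genes, 3 were down-regulated in sh*Pla2g4e* and none was up-regulated. *Camk4* kept 50.9% of its shCtrl mean, *Camk1d* 63.5% and *Camk2b* 76.6%. The background share of lower genes was 4% over all genes and 7.66% over the 10932 genes whose mean log2 CPM was 3 or more, a level that all 10 kinase genes reached. The libraries carry numbers 1 to 3 in both groups, and when the fit held the number as a block, 5 of the 10 were lower, with *Camk2d* and *Camkk2* added, against 9.02% lower and 6.50% higher over all genes and 16.8% lower over the more abundant ones. At an adjusted p under 0.05 without the block the same 5 genes were lower, against 7.31% of all genes.

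In 6 of the 10 genes every sh*Pla2g4e* library lay below every shCtrl library, which held for 14.6% of all genes and 23.9% of the more abundant ones. These were *Camk2b*, *Camk2d*, *Camk1*, *Camk1d*, *Camk4* and *Camkk2*. In *Camk2a*, *Camk2g*, *Camkk1* and *Camkv* the groups overlapped. The median log2 fold change of the 10 genes was −0.24, beside 0.03 over all genes tested and −0.02 over the more abundant ones.

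**Figure D1:**
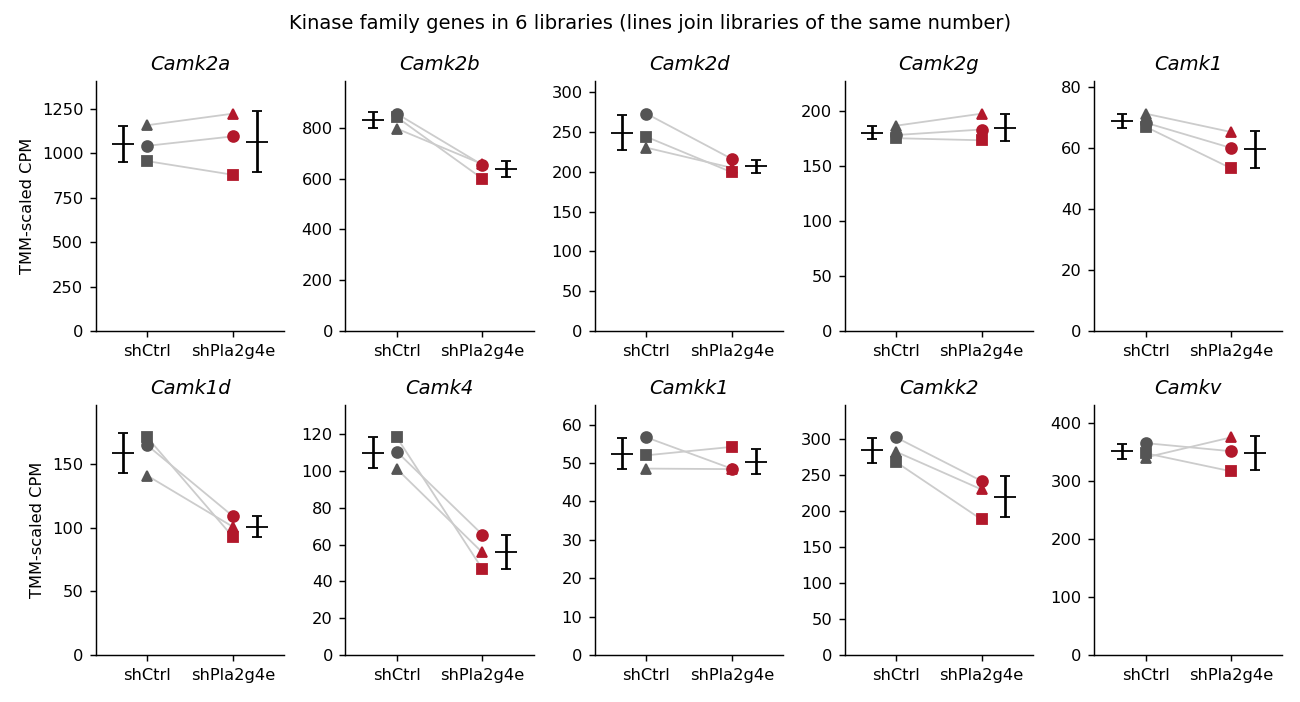
TMM-scaled CPM of the 10 kinase genes in each library, shCtrl in grey and shPla2g4e in red, with library numbers 1, 2 and 3 as circles, squares and triangles, grey lines between libraries of the same number, and the mean ± SD (n = 3) beside the points. The groups stand fully apart in 6 panels, among them Camk4 (101.2 to 118.4 CPM against 46.8 to 65.5), and overlap in Camk2a, Camk2g, Camkk1 and Camkv.

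*Camk2a*, the α subunit that is the hallmark of forebrain excitatory neurons, was read at 1041, 956 and 1157 CPM in shCtrl and at 1095, 879 and 1222 CPM in sh*Pla2g4e*. The groups overlapped over most of their range. The log2 fold change was 0.02 with a 95% interval from −0.21 to 0.25 (edgeR adjusted p = 0.945). *Camk2a* lies on chromosome 18, 61058690 to 61121224 (GRCm39, the build of the counted annotation).

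*Camk2b*, the β subunit, which binds F-actin and targets the holoenzyme to the cytoskeleton of spines, stood at 855, 841 and 796 CPM in shCtrl and at 653, 599 and 656 CPM in sh*Pla2g4e*. All 3 knockdown libraries were below all controls, with differences of −201, −242 and −140 CPM within numbered pairs. The log2 fold change was −0.38 (SE 0.0782, edgeR adjusted p = 0.0038). The call was kept in the 10 other ways of fitting all 6 libraries but was lost on leaving out 1 of 4 libraries, at adjusted p of 0.0135 without shCtrl 1, 0.0371 without shCtrl 2, 0.0166 without sh*Pla2g4e* 1 and 0.0212 without sh*Pla2g4e* 2, with log2 fold changes from −0.41 to −0.34 over the 6 libraries left out in turn. The gene lies on chromosome 11, 5919644 to 6016362.

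*Camk2d*, the δ subunit, more widely expressed outside the brain, stood at 273, 244 and 230 CPM in shCtrl and at 216, 199 and 205 CPM in sh*Pla2g4e*. The groups did not overlap, although the lowest control was close to the highest knockdown library. Its log2 fold change was −0.27 (95% interval −0.44 to −0.09), with an edgeR adjusted p of 0.0443 without and 7.75e-04 with the replicate block, so that only the blocked fit passed the threshold. It lies on chromosome 3, 126389951 to 126639975.

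*Camk2g*, the γ subunit, known as a carrier of calmodulin to the nucleus, stood at 179, 176 and 187 CPM in shCtrl and at 184, 174 and 198 CPM in sh*Pla2g4e*. The sets overlapped, and the log2 fold change was 0.04 (95% interval −0.13 to 0.20, edgeR adjusted p = 0.833). It lies on chromosome 14, 20784943 to 20844156.

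The 4 CaMKII genes were then set beside each other per length, as reads per kilobase of the exon length that the files give for a gene. In shCtrl *Camk2a* held 51.1%, 49.5% and 55.0% of their summed level per length, and in sh*Pla2g4e* 57.2%, 53.7% and 59.4%. The share was higher in 3 of 3 numbered pairs, by 6.09, 4.12 and 4.36 percentage points, while the groups overlapped. The means were 51.9% ± 2.83 and 56.7% ± 2.89 (SD, n = 3), a difference of 4.86 points with an exact two-sided permutation p of 0.2 (0.267 adjusted over the 4 genes). With 3 libraries against 3 this test cannot go below 0.1, and the sign-flip test over the pairs (p = 0.25, exact) is at its smallest value. As parts of a whole the 4 shares do not vary independently, since a lower share of a gene raises the others.

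*Camk2b* held 34.3%, 35.7% and 31.0% in shCtrl and 27.9%, 29.9% and 26.1% in sh*Pla2g4e*, with no overlap and a difference of −5.66 points (exact permutation p = 0.1, the smallest possible, and 0.2 adjusted). *Camk2g* held 10.4% ± 0.206 in shCtrl and 11.6% ± 0.678 in sh*Pla2g4e* (SD, n = 3), and every knockdown library was above every control (exact permutation p = 0.1, adjusted 0.2). *Camk2d* held 4.09% ± 0.413 and 3.69% ± 0.369 and its groups overlapped (exact permutation p = 0.3), with differences of −0.70, −0.16 and −0.33 points within numbered pairs. The ratio of *Camk2a* to *Camk2b* per length was 1.49, 1.39 and 1.78 in shCtrl and 2.05, 1.79 and 2.28 in sh*Pla2g4e*, so that the highest control lay just under the lowest knockdown library. The 4 genes together gave 2311 ± 83.4 CPM in shCtrl and 2093 ± 220 CPM in sh*Pla2g4e* (SD, n = 3), which overlapped (exact permutation p = 0.2). Within numbered pairs this sum went from 2347 to 2147, from 2216 to 1851 and from 2370 to 2281 CPM.

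The order of *Camk2a* and *Camk2b* depends on the length used. With the length of the longest coding transcript, 3244 bases for *Camk2a* and 2223 for *Camk2b*, the shCtrl shares were 38.7% for *Camk2a* and 44.7% for *Camk2b*, and in sh*Pla2g4e* 43.7% and 38.4%. The differences between groups kept their sign with either length and with plain reads.

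**Figure D2:**
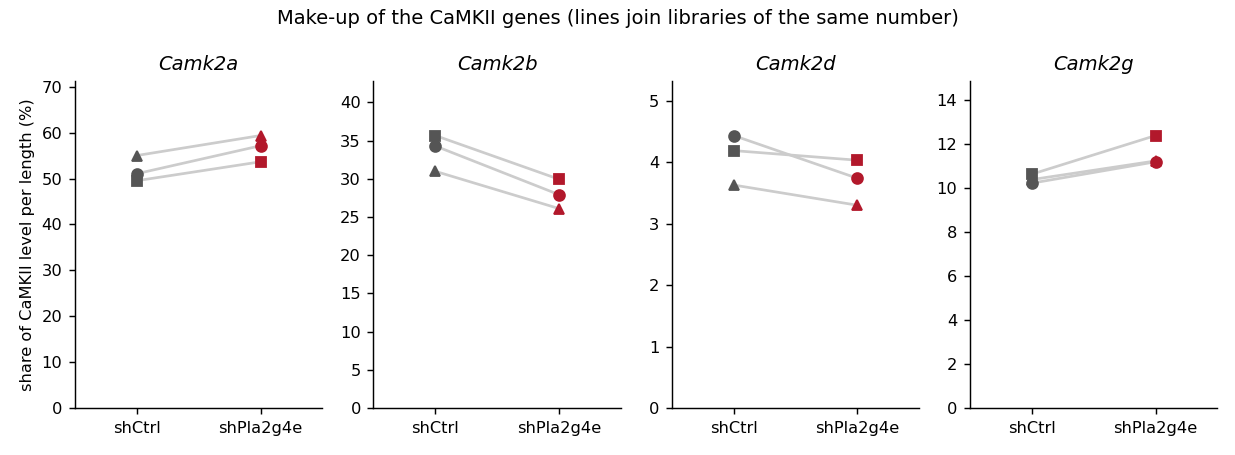
Share of each CaMKII gene in the summed level per length of the 4 genes, in percent (each vertical axis starts at 0 and has its own range), in shCtrl (grey) and shPla2g4e (red) libraries, with symbols for library numbers 1 to 3 and lines between libraries of the same number. Camk2a lay higher in 3 of 3 pairs with overlapping groups, and Camk2b moved from 31.0 to 35.7% in shCtrl to 26.1 to 29.9% in shPla2g4e.

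*Camk4*, which phosphorylates CREB and its coactivator CBP in the nucleus, had the largest change of the 10 genes. It stood at 111, 118 and 101 CPM in shCtrl and at 65.5, 46.8 and 55.8 CPM in sh*Pla2g4e*, so that the highest knockdown library was far below the lowest control. The log2 fold change was −0.97 (SE 0.108, edgeR adjusted p = 2.29e-05). It was called in all 6 fits that left out a library, at −1.10 to −0.86 on the log2 scale, and in the 10 other ways of fitting all libraries. *Camk4* lies on chromosome 18, 33067984 to 33324281, and 2.21% of its exon length is shared with a gene of the opposite strand, a stretch where reads falling on both genes were not counted.

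*Camk1d*, which encodes CaMKIδ, stood at 165, 171 and 141 CPM in shCtrl and at 109, 92.7 and 101 CPM in sh*Pla2g4e*. The groups stood apart, with differences of −55.6, −78.0 and −40.1 CPM within pairs. Its log2 fold change of −0.65 (SE 0.0916, edgeR adjusted p = 1.90e-04) was called in the same 16 fits, with a highest adjusted p of 0.0033 when a library was left out. It lies on chromosome 2, 5298268 to 5719326.

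*Camk1*, CaMKIα, stood at 68.3, 67.0 and 71.3 CPM in shCtrl and at 60.0, 53.4 and 65.2 CPM in sh*Pla2g4e*. The groups did not overlap, with a narrow gap between them. The log2 fold change was −0.21 (95% interval −0.40 to −0.02), with an edgeR adjusted p of 0.139, or 0.0298 with the block, and did not pass the threshold. The gene lies on chromosome 6, 113311085 to 113320945, and 3.88% of its exon length is shared with a gene of the opposite strand.

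*Camkk2*, CaMKKβ, which activates CaMKI, CaMKIV and also AMPK, stood at 302, 268 and 282 CPM in shCtrl and at 242, 188 and 230 CPM in sh*Pla2g4e*. Every knockdown library was below every control, with differences of −60.5, −79.8 and −52.5 CPM within pairs. The log2 fold change was −0.37 (95% interval −0.57 to −0.17), and the edgeR adjusted p of 0.0164 missed the threshold. The gene passed in 3 of the 10 other ways of fitting all libraries, with the replicate block (2.57e-06), with no filter on low counts (4.55e-04) and in DESeq2 (0.00196). It passed in 0 of the 6 fits without a library, at edgeR adjusted p of 0.0140 to 0.0776. *Camkk1*, CaMKKα, stood at 56.7, 52.0 and 48.5 CPM against 48.5, 54.2 and 48.4 CPM, with overlapping groups and a log2 fold change of −0.06 (95% interval −0.25 to 0.13, edgeR adjusted p = 0.762). *Camkk2* lies on chromosome 5, 122869233 to 122917472, and *Camkk1* on chromosome 11, 72909834 to 72932899.

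*Camkv* encodes a protein with a kinase-like domain and no kinase activity that is needed for the upkeep of spines. It stood at 365, 347 and 340 CPM in shCtrl and at 351, 316 and 375 CPM in sh*Pla2g4e*. The knockdown libraries spread more widely than the controls and enclosed them. The log2 fold change was −0.01 (95% interval −0.19 to 0.16, edgeR adjusted p = 0.943). The gene lies on chromosome 9, 107812873 to 107826890.

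**Figure D3:**
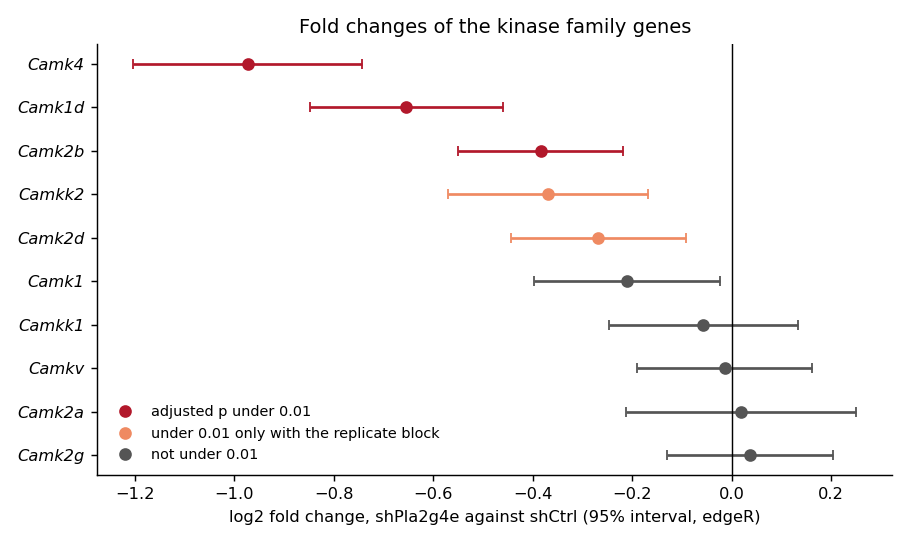
Log2 fold change of each kinase gene, shPla2g4e against shCtrl, from edgeR over all 6 libraries, with bars for the 95% interval and colours for the call without and with the replicate block. Camk4 (−0.97), Camk1d (−0.65) and Camk2b (−0.38) are called without the block, Camkk2 (−0.37) and Camk2d (−0.27) with it, and the intervals of Camkk1, Camkv, Camk2a and Camk2g include 0.

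Per kilobase of exon length, the order of the levels in shCtrl was *Camk2a* (141 CPM per kilobase), *Camkv* (93.2), *Camk2b* (91.0), *Camk4* (33.8), *Camk2g* (28.2), *Camkk2* (26.0), *Camk1d* (21.4), *Camkk1* (14.1), *Camk1* (11.5) and *Camk2d* (11.1). The neighbours *Camkv* and *Camk2b*, *Camk2g* and *Camkk2*, and *Camk1* and *Camk2d* overlapped between libraries. In sh*Pla2g4e* *Camk4* was at 17.2 CPM per kilobase, behind *Camk2g* (28.9) and *Camkk2* (20.1), and its range overlapped those of *Camkk2* and *Camk1d* (13.6). *Camk2b* (69.7) did not overlap *Camkv* (92.2). This order rests on the length used. Per kilobase of the longest coding transcript, shCtrl ran from *Camk2b* (374 CPM per kilobase), *Camk2a* (324), *Camkv* (107), *Camk2g* (93.1) and *Camkk2* (58.4) to *Camk2d* (46.1), *Camk1* (46.02), *Camk4* (40.5), *Camk1d* (22.8) and *Camkk1* (15.3), with overlap between the neighbours *Camk2d* and *Camk1*. On that scale *Camk4* stood behind *Camk2g* and *Camkk2* in both groups, at 20.6 CPM per kilobase in sh*Pla2g4e*. Each gene had between 847 and 26167 reads in a library. Of the 50-base stretches in their longest coding transcripts at most 1.11% (*Camk1*) occurred in another gene.

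The knockdown used an shRNA of 19 bases, and its guide strand could pair through its seed, bases 2 to 8, with transcripts other than *Pla2g4e*. The target and the guide are shown with the seed, or the bases it pairs with, in capitals, followed by the places in the longest coding transcripts of the kinase genes that hold the same 7 letters, each with 8 bases on either side.
sh2 target: ggaagatggtgGTGGCCAa
sh2 guide: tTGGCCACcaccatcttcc
*Camk1d*, 3′ UTR, transcript bases 3723 to 3729: agcaccgtGTGGCCAtacaggcc
*Camk2g*, coding sequence, 308 to 314: aagacattGTGGCCAgagagtac
*Camk1*, coding sequence, 317 to 323: agaaactgGTGGCCAtcaaatgc
*Camkk1*, coding sequence, 466 to 472: cccaccgtGTGGCCAtctcagac

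The transcripts were those of GENCODE vM21. *Camk1d* was the only one of the 10 genes with the match in its 3′ UTR, where 12.01% of 15493 genes held one. The coding matches of *Camk2g*, *Camk1* and *Camkk1* compare with 25.6% of 15849 genes, and none of these 3 genes passed the threshold. *Camk4* and *Camk2b*, which were lower, held no match in their longest coding transcripts, *Camk2b* having 1 in the coding sequence of another transcript. A part of the seed in the change of *Camk1d* was not tested.

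Markers of cell types moved between the groups as well. The 8 glutamatergic markers summed to 1065 to 1366 CPM in shCtrl and 722 to 795 in sh*Pla2g4e*, with 2 lower and 1 higher. *Slc17a7*, the vesicular glutamate transporter VGLUT1, stood at 745 ± 97.0 CPM against 300 ± 11.2 CPM (SD, n = 3), and without it the other 7 markers summed to 417 to 524 CPM in shCtrl and 424 to 489 in sh*Pla2g4e*, which overlapped. The 8 astrocyte markers summed to 2826 to 3630 and 1899 to 3082 CPM with 3 lower, and the GABAergic ones to 829 to 903 and 793 to 882 CPM with 2 lower and 2 higher. The pan-neuronal list had 3 lower and 1 higher. Microglial markers summed to 20.8 to 28.9 and 24.2 to 24.8 CPM, oligodendrocyte lineage markers to 483 to 545 and 500 to 596 CPM, and endothelial and mural markers to 20.9 to 27.7 and 21.5 to 30.7 CPM with *Cldn5* at 0 in every library, and none of these 3 lists had a gene called without the block. With the block 6 astrocyte markers were lower and 1 higher, 3 glutamatergic lower and 2 higher, 3 GABAergic lower and 2 higher, 4 pan-neuronal lower and 2 higher, 1 of the oligodendrocyte lineage (*Olig2*) lower, 1 endothelial (*Kdr*) higher and no microglial marker called. Over all genes 4% were lower and 2.48% higher without the block, and 9.02% and 6.50% with it. The part of the marker shifts in the lower *Camk4*, *Camk1d* and *Camk2b* was not tested.

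Around the kinases, 67 genes of the same pathway were read from the same fit, and 8 were lower, 1 was higher and 58 did not pass, with a median log2 fold change of −0.09. With the replicate block 17 were lower and 8 higher. Over all genes 4% were lower and 2.48% higher, and with the block 9.02% and 6.50%. Over the more abundant genes 7.66% were lower, and 16.8% with the block. Of the 8 lower genes, 4 (*Calm3*, *Shank3*, *Crebbp* and *Crtc1*) held a match to the sh2 seed in the 3′ UTR. *Lrrc7* has no 3′ UTR in the transcript searched, so that 7 could hold one. Over all genes with a 3′ UTR the share was 12.01%, or 17.4% when any annotated transcript was counted. No share was taken over the 58 genes that did not pass, and UTR length and level were not matched. The part of the seed in these changes was not tested.

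Calmodulin, the calcium sensor that switches the kinases on, is encoded by several genes for an identical protein. *Calm3* stood at 1524, 1478 and 1325 CPM in shCtrl and at 1102, 1017 and 1061 CPM in sh*Pla2g4e*. The groups stood apart, with a log2 fold change of −0.44 (SE 0.082, edgeR adjusted p = 0.0018), which did not pass without shCtrl 2 (adjusted p = 0.0242). *Calm2* (log2 fold change −0.09, SE 0.092, edgeR adjusted p = 0.627) did not pass. It is uncertain, since 12.72% of its 50-base stretches occur in other genes and reads that map to several places were not counted.

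Of 16 other kinases of the family, 1 was lower and 1 higher, beside 4% and 2.48% of all genes. With the block 3 were lower and 2 higher, beside 9.02% and 6.50% of all genes. *Camk1g*, the membrane-anchored CaMKIγ known for dendrite formation, stood at 111, 98.4 and 86.5 CPM in shCtrl and at 72.4, 60.8 and 69.8 CPM in sh*Pla2g4e*, without overlap and with a log2 fold change of −0.54 (SE 0.0986, edgeR adjusted p = 0.00166). Its call was lost without shCtrl 1 (adjusted p = 0.0105) or shCtrl 2 (0.0118). *Mylk3*, known as the cardiac myosin light chain kinase, was expressed at a low level, 5.43, 4.03 and 3.73 CPM in shCtrl and 13.9, 10.7 and 11.0 CPM in sh*Pla2g4e*. It rose in every knockdown library, by 1.44 on the log2 scale (SE 0.182, edgeR adjusted p = 7.83e-05). *Dclk1*, a microtubule-binding kinase and the highest of these per length, was at 1669 ± 234 and 1841 ± 130 CPM (SD, n = 3) and did not pass (edgeR adjusted p = 0.426).

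The inhibitors of CaMKII, *Camk2n1* and *Camk2n2*, did not pass. *Camk2n1* was at 479 ± 48.4 CPM in shCtrl and 489 ± 91.8 CPM in sh*Pla2g4e* (log2 fold change 0.03, 95% interval −0.22 to 0.28) and *Camk2n2* at 147 ± 6.79 and 154 ± 3.0 CPM (0.07, −0.09 to 0.23; SD, n = 3). The 9 genes on the phosphatase side cover calcineurin, phosphatases that act on the kinases and regulators of protein phosphatase 1. None passed in the reported fit, with log2 fold changes from −0.32 to 0.33 and a smallest edgeR adjusted p of 0.0138. The gene with that value passed in other fits without the block, among them limma after voom (adjusted p = 0.00866) and DESeq2 (9.58e-04). With the block 2 of the 9 were lower and 1 higher. *Ppp1r9b*, spinophilin, the highest of them per length, stood at 600.0 ± 40.5 and 624 ± 32.6 CPM. The 6 AMPK subunit genes, AMPK being a target of CaMKK2, ranged from −0.24 to 0.12 and none passed with or without the block (smallest edgeR adjusted p 0.124), the highest per length being *Prkab2* (0.09).

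Among 4 calmodulin-binding buffers, *Nrgn*, neurogranin, which holds calmodulin at low calcium in spines, stood at 755, 790 and 677 CPM in shCtrl and at 554, 441 and 540 CPM in sh*Pla2g4e*. The groups stood apart, and *Nrgn* fell by 0.53 on the log2 scale (SE 0.0959, edgeR adjusted p = 0.00148, and 0.0197 without shCtrl 2). The other buffers did not pass in the reported fit, and with the block 1 was higher.

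Of 15 anchors and substrates of CaMKII, 3 were lower and none higher, beside 7.66% lower over the more abundant genes. With the block 6 were lower and 3 higher, beside 16.8% lower over the more abundant genes and 6.50% higher over all genes. *Shank3*, a scaffold of the postsynaptic density, stood at 295, 273 and 276 CPM in shCtrl and at 161, 132 and 179 CPM in sh*Pla2g4e*, a log2 fold change of −0.84 (SE 0.0985, edgeR adjusted p = 3.95e-05). It stood fully apart and was called in each fit that left out a library. *Grin2a*, the NMDA receptor subunit GluN2A, stood at 97.5, 98.1 and 89.2 CPM against 74.7, 62.6 and 65.9 CPM (log2 fold change −0.49, SE 0.0869, edgeR adjusted p = 0.00142). *Lrrc7*, densin-180, which binds the CaMKII α subunit, stood at 155, 158 and 136 CPM against 110, 104 and 110 CPM (log2 fold change −0.47, SE 0.082, edgeR adjusted p = 0.00119). Neither of these overlapped between groups, and both calls were lost without shCtrl 2 (adjusted p = 0.0142 and 0.0154). *Syn1*, synapsin I, the highest of the list per length, was at 519 ± 69.0 and 505 ± 21.7 CPM (SD, n = 3) and did not pass (edgeR adjusted p = 0.848).

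Of 12 genes of the CREB and class IIa HDAC branch that CaMKIV and CaMKI act on, 2 were lower, beside 7.66% of the more abundant genes. *Crtc1*, a coactivator of CREB, stood at 182, 185 and 184 CPM in shCtrl and at 131, 138 and 132 CPM in sh*Pla2g4e*, tight and well apart, with a log2 fold change of −0.46 (SE 0.0739, edgeR adjusted p = 6.14e-04). *Crebbp*, which encodes CBP, stood at 81.5, 79.1 and 75.3 CPM against 63.2, 61.2 and 62.6 CPM (log2 fold change −0.33, SE 0.0776, edgeR adjusted p = 0.00895), and lay so near the threshold that it did not pass in 5 of 6 fits without a library (adjusted p up to 0.0497), with upper-quartile scaling (0.0165) or with library size alone (0.0291). *Mef2c*, a transcription factor released by HDAC phosphorylation and the highest per length, was at 1065 ± 161 and 838 ± 110 CPM (SD, n = 3). Its groups overlapped, and it did not pass (edgeR adjusted p = 0.0558). It passed in 2 of the 10 other ways of fitting all libraries, with no filter (0.00131) and with the block (3.30e-06). Of 6 fits without a library it passed in 1, without shCtrl 3 (0.00807), and the adjusted p reached 0.221 without shCtrl 1. With the block 4 of the 12 were lower and 1 higher, beside 16.8% lower over the more abundant genes and 6.50% higher over all genes.

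**Figure D4:**
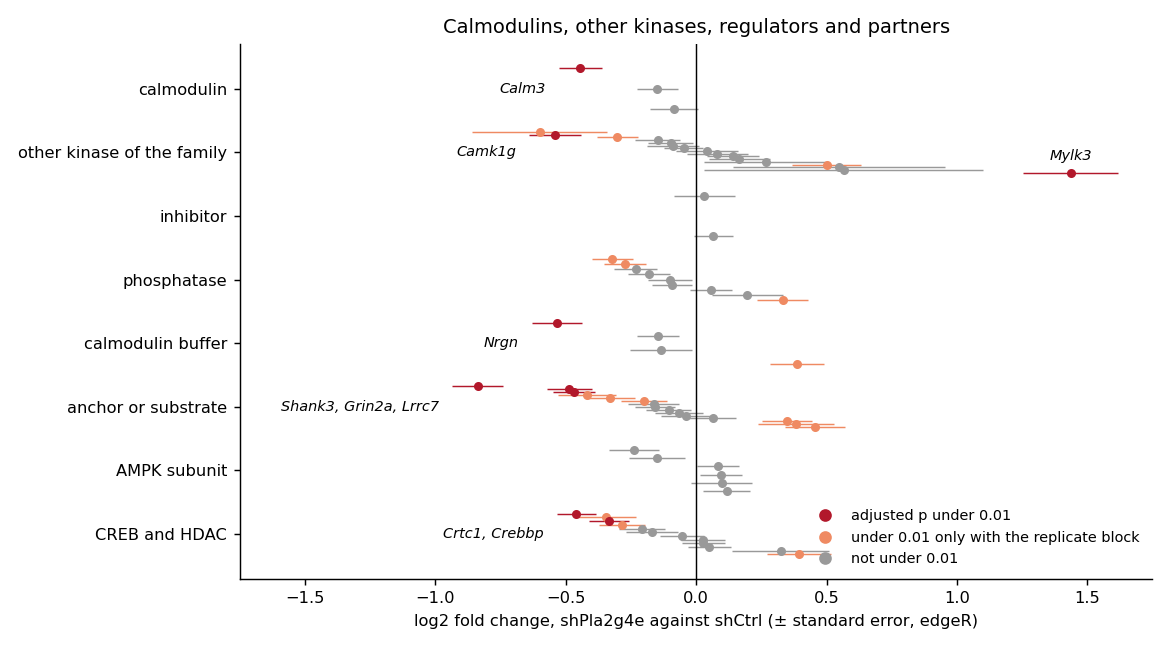
Log2 fold change (± standard error, edgeR, 3 libraries a group) of the 67 related genes by role, coloured by the call without and with the replicate block and with the 9 called genes named (to the left of their points where lower). Without the block Mylk3 (1.44) is the only gene called higher, while 8 are with it, and Shank3 (−0.84) has the lowest log2 fold change.

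The genes outside these lists whose profile over the 6 libraries was most like that of *Camk4* were *Dcc*, *Sema3a* and *Diras2*, searched among the 10932 more abundant genes. The root mean square distance between centred log2 CPM was 0.0775, 0.08 and 0.0884. *Dcc*, a netrin receptor, stood at 54.2 ± 5.81 CPM in shCtrl and 26.9 ± 3.17 CPM in sh*Pla2g4e* (SD, n = 3). *Sema3a*, a secreted axon guidance cue, stood at 54.5 ± 5.42 and 29.1 ± 5.24 CPM, and *Diras2*, a small GTPase gene, at 423 ± 37.7 and 225 ± 44.6 CPM. As the likeness was measured over all 6 libraries, the fall of these 3 genes between the groups is part of how they were picked.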

How the data were processed

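The authors aligned the reads with STAR 2.7.0d, counted reads on exons per gene with featureCounts 1.6.0 and deposited raw counts, 1 file per library. The methods of the paper give mm10 with GENCODE M18 as reference, whereas the file headers name release 28 and carry GRCm39 coordinates. No strand or read-pair option is recorded, and reads that map to several places or genes were not counted. Symbols came from GENCODE vM21 (52081 of 55357 identifiers matched).

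Counts were tested with edgeR 4.0.16 in R 4.3.3 (TMM, glmQLFit, glmQLFTest; at least 6 reads in at least 1 library; Benjamini-Hochberg over 21876 genes; adjusted p 0.01). Standard errors came from the F statistic. Alternatives were limma 3.58.1 after voom, DESeq2 1.42.0, other scalings and filters, a replicate block, the robust fit, leaving out libraries in turn and an adjusted p of 0.05. The scripts were tested on simulated data. Shares used exact permutation tests. The transcript length was chosen as an alternative after seeing the data.

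Over 10908 genes, libraries of the same number deviated together from their group means (r = 0.392, 0.189 and 0.461), and r was −0.393 to 0.108 for other pairs, so that the numbers, taken from the labels, were taken to pair the libraries. The labels do not say that libraries of the same number share a preparation. Deviations were centred within each group, so that the r of different pairs are not independent. The reported fit has no block, and blocked values are given beside it where they change a call or count.

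The kinase genes, gene lists and tests were chosen with earlier results of these data known. Named were all 10 members, *Pla2g4e*, in each role the called genes (up to 4) and the highest per exon length, the calmodulins and CaMKII inhibitors, and the 3 profiles most like the called kinase gene with the largest change. *Slc17a7*, *Olig2* and *Kdr* were named after their values were seen, as was *Cldn5*. A gene that the rule names is not reported here.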

Additional observations from a re-analysis of the deposited data

How the results depend on the processing

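The count of lower kinase genes was 3 in the reported fit, 5 with the replicate block and 5 at an adjusted p under 0.05, and lay between 2 and 3 when a library was left out. All genes called numbered 1419, against 2349 with no filter, 3395 with the block, 2813 at an adjusted p under 0.05 and 695 to 1613 when a library was left out, 695 being without shCtrl 2. The lower related genes numbered 13 with no filter, 17 with the block, 14 at 0.05 and 2 to 12 when a library was left out, 2 being without shCtrl 2. The higher related genes numbered 4 in DESeq2, 5 with library size alone, 5 with no filter, 2 in the robust fit, 8 with the block, 7 at 0.05 and 1 to 4 when a library was left out. The cause was not tested. Of the genes named, those whose log2 fold change changed sign had not passed. When a library was left out, they ran from −0.092 to 0.14 for *Camk2a*, −0.015 to 0.080 for *Camk2g*, −0.11 to 0.0032 for *Camkk1*, −0.073 to 0.048 for *Camkv*, −0.15 to 0.016 for *Calm2*, −0.14 to 0.048 for *Syn1* and −0.092 to 0.17 for *Camk2n1*. Library size alone gave 0.020 for *Camkk1*, 0.060 for *Camkv* and 0.036 for *Syn1*, upper-quartile scaling 0.021 and a filter of 10 reads in every library 0.0045 for *Camkv*. Library size alone moved the median over all genes from 0.03 to 0.10 (log2). Beyond the calls named in the results, the replicate block changed no other call of a named gene. The difference in the *Camk2a* share lay between 3.53 and 6.43 points when a library was left out. With 3 libraries a group, intervals of about 0.2 on either side of a log2 fold change limit what can be seen.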
